A study of Arabidopsis thaliana and Ginkgo biloba and Brassica rapa with 14 samples.

Results

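The share of cytosines that escaped bisulfite conversion was compared, site by site, between the tRNAs of Brassica rapa and those of Arabidopsis thaliana, which both belong to the Brassicaceae family. The methylation table of the series lists 59 cytosine positions in tRNAs, each named by its isodecoder (the amino acid and anticodon), its genome of origin and its position in the representative tRNA structure. All sites with a number in both species were taken, which gave 42 of the 59 sites, in 23 isodecoders. Of these, 38 sites lie in 19 isodecoders encoded by the nucleus, and 4 lie in tRNAs of the chloroplast or of more than 1 genome. A. thaliana had a number at 47 sites of the table and B. rapa at 46. The study displayed cytosines with methylation in 1 or more of its species. Each of the 42 sites compared reached the study's 20% threshold in at least 1 species of the series. The levels below therefore describe such sites and not all cytosines of the tRNAs.

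The A. thaliana plants were wild type seedlings of 10 days, sequenced as 3 RNA bisulfite sequencing (RBS-seq) libraries, and the deposited value is the authors' mean over the replicates. The B. rapa plants were wild type and gave 1 RBS-seq library. Its tissue is leaf in the sample labels and shoot apex in the study's methods, and no age is given. Both RNAs were purified from a gel to enrich tRNAs. Species and tissue therefore differ together between the 2 columns and cannot be told apart, and whether the age differed is not known. Since each site has 1 value per species, without a spread, no difference below could be tested.

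5-methylcytosine (m5C) is a common modification of tRNAs. Bisulfite turns unmodified cytosine into uracil, which is read as thymine, whereas m5C stays a cytosine, although some other modified cytosines resist conversion too. The methyltransferase TRDMT1 (DNMT2) modifies C38 in the anticodon loop of a few tRNAs, and the enzymes of the TRM4 family, yeast Trm4 and animal NSUN2 among them, modify cytosines at positions 48, 49 and 50. Position 48 closes the variable region and pairs with a base of the D loop, which helps to hold the L shape of the tRNA. Positions 49 and 50 are the outer base pairs of the T stem. The methylation percentage is the number of reads with a cytosine divided by the reads with a cytosine or a thymine, and the authors required at least 5 reads per position, where 1 read is worth 20 percentage points. The number of reads behind each percentage was not analysed here, so no interval is given for single values.

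The A. thaliana consensus sequences below carry the sites on which the comparison turned. The first 3 show the tRNAs with the widest differences and the other isodecoder of glutamine, the next 2 show tRNAs whose sites, other than C48 of tRNA-Asp(GTC), had nearly the same values in both species, and the last 4 show tRNAs with an intermediate difference or with a value in B. rapa only. Each is written 5′ to 3′ with T for U, and capitals mark the cytosines that have a number in A. thaliana or B. rapa. No B. rapa tRNA sequence was used.
tRNA-Gln(TTG): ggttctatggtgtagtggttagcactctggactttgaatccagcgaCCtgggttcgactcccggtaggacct
tRNA-His(GTG): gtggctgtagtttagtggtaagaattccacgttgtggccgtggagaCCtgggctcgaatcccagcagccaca
tRNA-Gln(CTG): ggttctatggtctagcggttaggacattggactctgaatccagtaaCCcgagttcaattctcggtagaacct
tRNA-Asp(GTC): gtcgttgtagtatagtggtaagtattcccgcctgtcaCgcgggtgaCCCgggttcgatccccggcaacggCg
tRNA-Glu(CTC): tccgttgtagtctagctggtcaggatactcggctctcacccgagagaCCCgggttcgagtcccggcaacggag
tRNA-Ser(TGA): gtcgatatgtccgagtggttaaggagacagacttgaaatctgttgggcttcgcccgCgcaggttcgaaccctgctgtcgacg
tRNA-Thr(TGT): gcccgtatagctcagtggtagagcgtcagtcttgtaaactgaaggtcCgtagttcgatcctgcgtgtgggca
tRNA-Ile(AAT): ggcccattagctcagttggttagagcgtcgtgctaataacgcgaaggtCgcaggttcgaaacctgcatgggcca
tRNA-Leu(CAA): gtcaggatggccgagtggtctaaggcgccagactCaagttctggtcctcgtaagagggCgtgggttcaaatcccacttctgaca

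Each consensus stands for several nuclear genes, and the coordinates are those of the first locus that the reference list gives (TAIR10, strand not given in the list). tRNA-Gln(TTG) stands for 7 genes on 3 chromosomes, the first at chr1:7499733-7499804. tRNA-His(GTG) stands for 10 genes on 5 chromosomes, the first at chr1:552640-552711, and tRNA-Gln(CTG) for 9 genes on 5 chromosomes, the first at chr2:7039094-7039165. tRNA-Asp(GTC) stands for 25 genes, the first at chr1:877648-877719, and tRNA-Glu(CTC) for 13 genes, the first at chr1:10207306-10207378. The first loci of the other 4 are chr1:20791311-20791392 for tRNA-Ser(TGA), chr1:1817400-1817471 for tRNA-Thr(TGT), chr1:1978084-1978157 for tRNA-Ile(AAT) and chr1:6948860-6948943 for tRNA-Leu(CAA). Counted from the anticodon for positions 34 to 39 and from the 3′ end, with the last base as position 73, for positions 48 to 72, 41 of the 42 sites fell on a cytosine of the consensus. The exception was position 68 of tRNA-Lys(CTT), which fell on a thymine by this count.

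Most sites had similar values in the 2 species. Over the 42 sites the median absolute difference was 3 percentage points, with quartiles of 0.417 and 9.50 points. The difference was at most 1 point at 12 sites and at most 5 points at 27 sites. It lay above 5 and below 20 points at 11 sites, and it was 20 points or more at 4 sites, or 9.52% of those compared. They lay at C48 and C49 of tRNA-Gln(TTG) and at C48 in the tRNAs for histidine, His(GTG), and serine, Ser(TGA). Without tRNA-Gln(TTG) the count was 2. Because a few differences were wide, the mean absolute difference was 9.37 points. The 42 sites include the 4 of organellar or ambiguous origin, which were at 0% in both species. Over the 38 nuclear sites alone the median absolute difference was 3.83 points, with quartiles of 1.42 and 9.92 points. Of these, 8 sites differed by at most 1 point and 23 by at most 5 points.

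**Figure D1:**
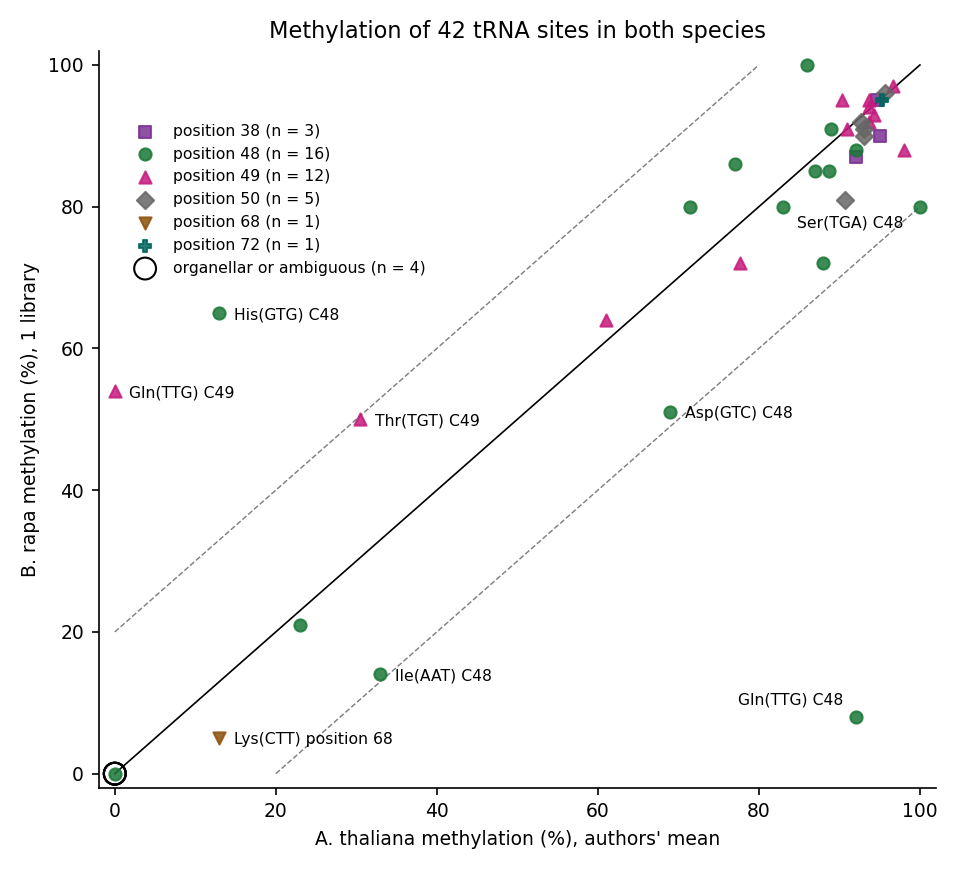
Methylation of each site in A. thaliana (x axis, percent, the authors' mean) and in B. rapa (y axis, percent, 1 library), with colour and shape for the structural position and open circles around the 4 sites of organellar or ambiguous origin, which all lie at 0 in both species. The solid line marks equal values and the dashed lines a difference of 20 points. Only both cytosines of tRNA-Gln(TTG) and the C48 of tRNA-His(GTG) lie beyond the dashed lines, and C48 of tRNA-Ser(TGA) lies on one of them.

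Neither species was higher throughout. B. rapa had the higher value at 14 sites, the lower value at 22 and the same value at 6, of which 5 were at 0 in both. Counting differences over 5 points only, B. rapa was higher at 6 sites and lower at 9. The median value over the nuclear sites was 90.5% in A. thaliana and 86.5% in B. rapa. With 20% or more called methylated, which is the threshold the study used, 32 sites were methylated in both species, 2 in A. thaliana only, 2 in B. rapa only and 6 in neither. The 2 sites above the threshold in A. thaliana only were the C48 of tRNA-Gln(TTG) and that of tRNA-Ile(AAT), and the 2 in B. rapa only were the C49 of tRNA-Gln(TTG) and, in tRNA-His(GTG), C48. Pearson's r over the 42 sites was 0.856 and Spearman's rho 0.797, as a description only, since sites of one tRNA share its reads and sequence. Pearson's r was lower over the 38 nuclear sites, 0.764, and over the 36 sites at 20% or more in either species, 0.652.

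Most nuclear sites, all of them listed with methylation in some species of the study, were at a high level in both species. Of the 38, 26 were at 80% or more in A. thaliana, and at 24 of these B. rapa was also at 80% or more. The median absolute difference of the 26 sites was 2.50 points, but their range reached 84 points, and they held 2 of the 4 sites that differed by 20 points or more, C48 of tRNA-Gln(TTG) and of tRNA-Ser(TGA). For 8 sites between 20% and 80% in A. thaliana the median was 8.75 points, with a range of 2 to 19.5. The 4 sites below 20% differed by 0, 8, 52 and 54 points.

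**Figure D2:**
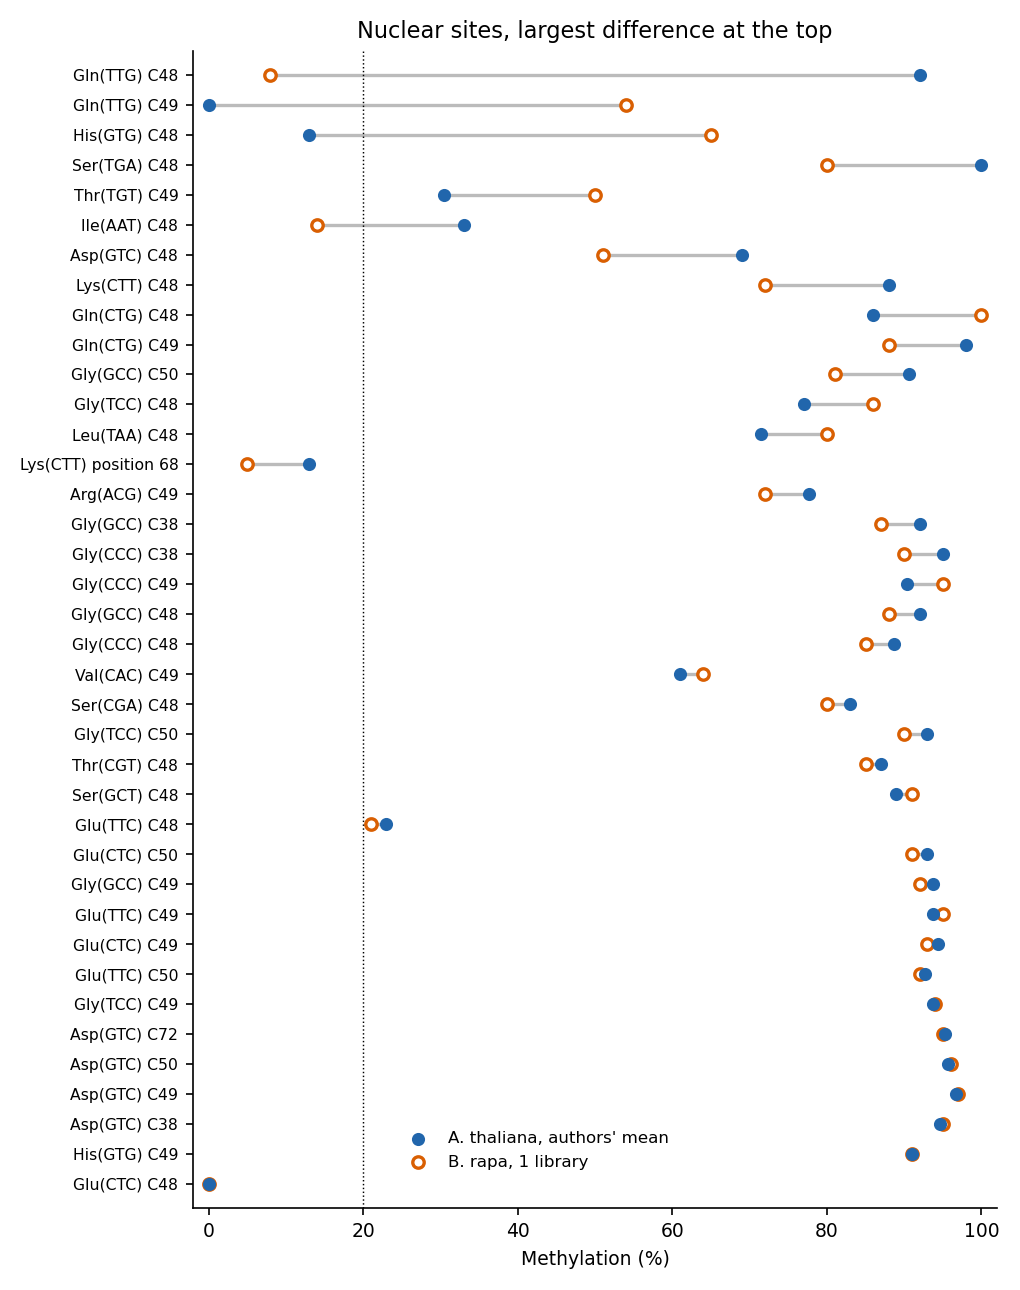
Methylation (x axis, percent) of the 38 nuclear sites in A. thaliana (filled blue, the authors' mean) and B. rapa (open orange, 1 library), sorted by the size of the difference with the widest at the top. The dotted line marks the 20% threshold. The differences run from 84 points at C48 of tRNA-Gln(TTG) to 0 at C49 of tRNA-His(GTG) and C48 of tRNA-Glu(CTC).

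tRNA-Gln(TTG), one of the 2 nuclear acceptors of glutamine listed here, had the widest differences. Its C48 was at 92% in A. thaliana and at 8% in B. rapa. Its neighbour C49 was at 0% in A. thaliana and at 54% in B. rapa. The methylated cytosine of the pair was thus position 48 in one species and position 49 in the other, and the mean of the 2 positions was 46% in A. thaliana and 31% in B. rapa. In durum wheat (Triticum durum), set beside them as another land plant with 1 library, the values were 66% at C48 and 69% at C49, so both positions were above the threshold there. Of the algae, with 1 library each, Caulerpa taxifolia was at 6% at C48 and 94% at C49, and Nannochloropsis oculata at 33% and 100%. A. thaliana was the only one of these species at 0% at C49. tRNA-Gln(TTG) was at 2.74 RPM in the A. thaliana RNA-seq library, the level of 8 reads.

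tRNA-Gln(CTG), the other glutamine isodecoder, was at high levels at both positions in both species. Its C48 was at 86% in A. thaliana and 100% in B. rapa, and its C49 at 98% and 88%. The higher of the 2 cytosines was not the same in the 2 species, but the step was only 12 points in each. The number of reads behind these values was not analysed here, so whether this step exceeds the read error is not known. The 2 consensus sequences of A. thaliana are identical at 58 of 72 bases. In both an adenosine precedes C48, and the base that follows C49 is a cytosine in tRNA-Gln(CTG) and a thymine in tRNA-Gln(TTG).

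tRNA-His(GTG), the nuclear histidine tRNA, differed at C48 and not at C49. C48 was at 13% in A. thaliana and 65% in B. rapa, a difference of 52 points, whereas C49 was at 91% in both. The value of B. rapa at C48 was equal to that of Ginkgo biloba, a gymnosperm with 1 library, at 65%, and durum wheat was at 84%. A. thaliana was therefore the lowest of these 4 species at C48. tRNA-His(GTG) and tRNA-Gln(TTG) share the bases GACCTGG around C48 and C49, which are the CC of that run, and the 2 consensus sequences share 21 of their last 30 bases. Over the whole length they are identical at 42 of 72 bases. The 2 glutamine sequences share 22 of their last 30 bases. The abundance of tRNA-His(GTG) in A. thaliana was 26.34 RPM, or 77 reads.

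A site each of tRNA-Ser(TGA), tRNA-Thr(TGT), tRNA-Ile(AAT) and tRNA-Lys(CTT) differed by 16 to 20 points, as did C48 of tRNA-Asp(GTC), described below. C48 of tRNA-Ser(TGA) was at 100% in A. thaliana and 80% in B. rapa, exactly at the line. C49 of tRNA-Thr(TGT) was at 30.5% and 50%, a difference of 19.5 points just below it. C48 of tRNA-Ile(AAT) was at 33% and 14%, which put it above the threshold in A. thaliana only. In durum wheat and Ginkgo biloba the same cytosine was at 76% and 59%, above both species compared here. In the A. thaliana RNA-seq library tRNA-Ile(AAT) had the lowest abundance of the nuclear isodecoders compared, 0.34 RPM, the level of 1 read. tRNA-Ser(TGA) was at 2.74 RPM and tRNA-Thr(TGT) at 6.16 RPM. C48 of tRNA-Lys(CTT) was at 88% and 72%, beside 91% in durum wheat and 88% in Ginkgo biloba. Position 68 of the same tRNA, in the acceptor stem, was at 13% and 5%, below the threshold in both.

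Sites of the anticodon loop were close to each other in the 2 species. C38, the cytosine that TRDMT1 modifies, had a number in 3 nuclear tRNAs. It was at 94.7% in A. thaliana and 95% in B. rapa in tRNA-Asp(GTC), at 95% and 90% in tRNA-Gly(CCC), and at 92% and 87% in tRNA-Gly(GCC). The median absolute difference was 5 points, and all 6 values were at 87% or more. In all 3 consensus sequences C38 is preceded by an adenosine and followed by a guanosine.

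tRNA-Asp(GTC) carried sites at 5 positions, more than any other tRNA compared. Besides C38, its C49 was at 96.7% in A. thaliana and 97% in B. rapa, and its C50 at 95.7% and 96%. C72, the only site of the table at the end of the acceptor stem, was at 95.3% and 95%, opposite the guanosine at position 1. These 4 sites each differed by 0.333 points. The remaining site, C48, was at 69% and 51%, so within one tRNA a difference of 18 points stood beside 4 that were close to 0.

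**Figure D3:**
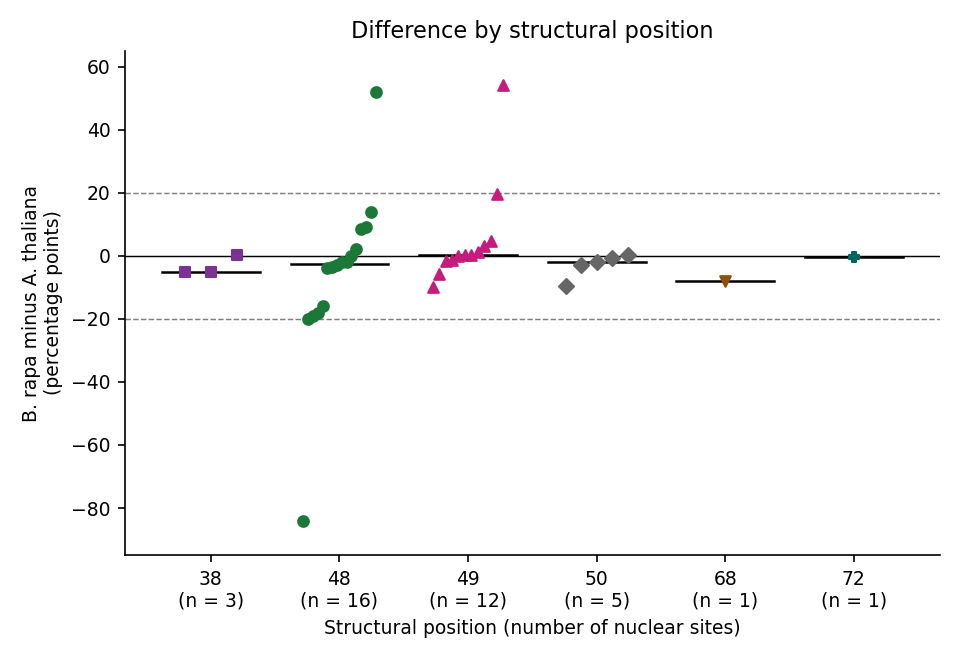
Difference in methylation, B. rapa minus A. thaliana (y axis, percentage points), of the 38 nuclear sites by structural position (x axis). Black bars are medians, the solid line marks 0 and the dashed lines 20 points in each direction. The points at position 48 run from -84 to 52, and those at position 50 from -9.67 to 0.333.

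Position 48 held the widest spread. Over 16 nuclear sites the median absolute difference was 8.75 points, with differences from -84 to 52 points, and B. rapa was higher at 5, lower at 10 and equal at 1. It held 3 of the 4 sites that differed by 20 points or more. At 9 of these sites the next base is the cytosine of position 49, with a median absolute difference of 9 points, and at 7 it is a guanosine, with a median of 8.50 points. Of the sites followed by a guanosine, the leucine, serine and threonine tRNAs not named above were tRNA-Leu(TAA) at 71.5% in A. thaliana and 80% in B. rapa, tRNA-Ser(CGA) at 83% and 80%, tRNA-Ser(GCT) at 89% and 91%, and tRNA-Thr(CGT) at 87% and 85%. These 4 differed by 2 to 8.50 points.

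The T stem positions differed less. At position 49, the median absolute difference over 12 nuclear sites was 2.33 points, with B. rapa higher at 7, lower at 4 and equal at 1, and the only difference of 20 points or more was that of tRNA-Gln(TTG). The guanosine at position 65, which pairs with this base, is present in all 12 consensus sequences. Besides those already named, C49 was at 77.7% in A. thaliana and 72% in B. rapa in tRNA-Arg(ACG) and at 61% and 64% in tRNA-Val(CAC). At position 50, where all 5 consensus sequences have a guanosine at the pairing position 64, the median absolute difference was 2 points. The sites other than that of tRNA-Asp(GTC) were tRNA-Glu(CTC) at 93% and 91%, tRNA-Glu(TTC) at 92.7% and 92%, tRNA-Gly(TCC) at 93% and 90%, and tRNA-Gly(GCC) at 90.7% and 81%. All 5 tRNAs have CCC at positions 48 to 50 followed by GGG. The medians of the positions rest on different tRNAs and are given as a description.

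The neighbours C48 and C49 could be set against each other in 9 nuclear tRNAs. C49 had the higher value in 8 of the 9 in A. thaliana and in 8 of the 9 in B. rapa. The order was the same in both species in 7 tRNAs, and it was turned around in the 2 glutamine isodecoders. Some of these orders rest on small steps, such as 1.67 points in A. thaliana in tRNA-Gly(CCC) and in tRNA-Gly(GCC). The median of C49 minus C48 was 16.7 points in A. thaliana and 26 points in B. rapa.

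**Figure D4:**
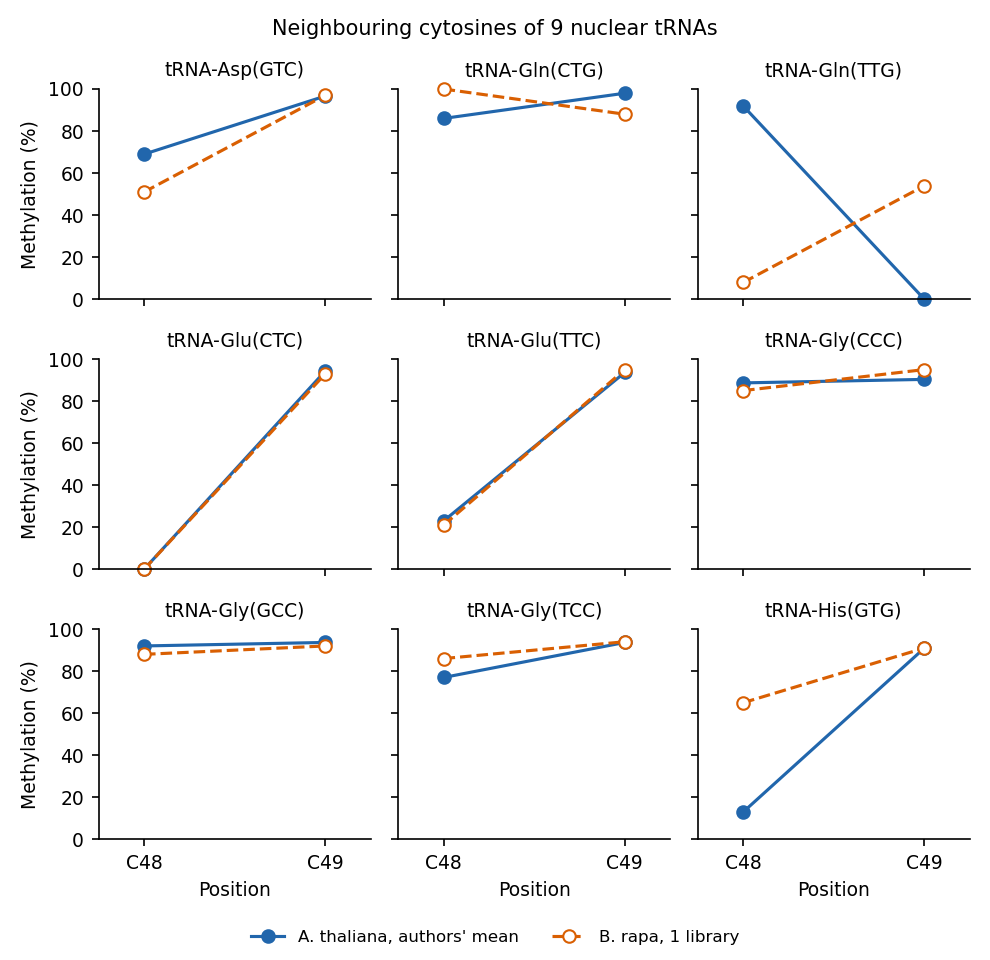
Methylation (y axis, percent) of C48 and C49 (x axis) in the 9 nuclear tRNAs with a number at both positions in both species, with A. thaliana in solid blue (the authors' mean) and B. rapa in dashed orange (1 library). The lines slope in opposite directions in tRNA-Gln(TTG) and tRNA-Gln(CTG) and nearly lie on each other in the 2 glutamate tRNAs. In tRNA-His(GTG) they start 52 points apart and meet at 91%.

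The 2 glutamate isodecoders had the same step in both species. In tRNA-Glu(CTC), C48 was at 0% in both, and C49 was at 94.3% in A. thaliana and 93% in B. rapa. In tRNA-Glu(TTC), C48 was at 23% and 21%, and C49 at 93.7% and 95%. In both tRNAs C49 was thus well above C48 in both species, although C48 of tRNA-Glu(TTC) lay just above the 20% threshold in each. The 2 consensus sequences share 28 of their last 30 bases. These 2 tRNAs had the highest abundance of the nuclear isodecoders compared, 626.93 and 278.75 RPM, and the lowest mean absolute differences over their sites, 1.11 and 1.33 points.

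The glycine isodecoders were at 77% or more at both positions in both species. C48 was at 88.7% in A. thaliana and 85% in B. rapa in tRNA-Gly(CCC), at 92% and 88% in tRNA-Gly(GCC), and at 77% and 86% in tRNA-Gly(TCC). C49 was at 90.3% and 95%, at 93.7% and 92%, and at 93.7% and 94% in the same order. Among these tRNAs the widest step between the neighbours was that of tRNA-Gly(TCC) in A. thaliana, 16.7 points, against 8 points in B. rapa. tRNA-Gly(GCC) was lower in B. rapa at all 4 of its sites, by 1.67 to 9.67 points.

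The abundance of the tRNAs in A. thaliana was set beside the differences. Abundances come from 1 A. thaliana RNA-seq library, in RPM, the reads of a tRNA scaled to a common library size, and 1 read is worth 0.342 RPM. Over the 19 nuclear isodecoders, which ranged from 0.34 to 626.93 RPM, Spearman's rho between the abundance and the mean absolute difference of a tRNA was -0.23, as a description across isodecoders of 1 library. For the 12 isodecoders below 10 RPM the median of the mean absolute difference was 10.2 points, with a range of 2 to 69, and for the 7 at 10 RPM or more it was 4.11 points, with a range of 1.11 to 26. The ranges overlap, and tRNA-His(GTG) had a wide difference at 26.34 RPM. The 3 isodecoders with a site that differed by 20 points or more had a median of 2.74 RPM, and the other 16 a median of 5.13 RPM. The part of read depth in the differences was not tested, and the abundance of the tRNAs in B. rapa was not analysed here.

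**Figure D5:**
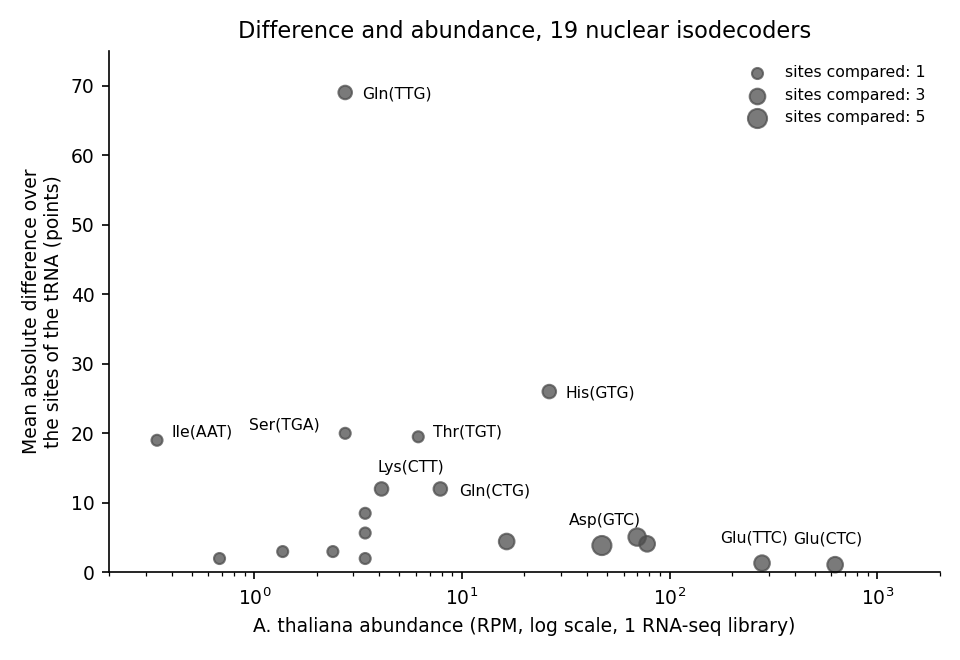
Abundance in A. thaliana (x axis, RPM on a log scale, 1 RNA-seq library) and mean absolute difference between the species over the sites of a tRNA (y axis, percentage points) for the 19 nuclear isodecoders, with the area of a point growing with the number of sites compared. tRNA-Gln(TTG) lies at 69 points and 2.74 RPM, and the 2 glutamate tRNAs lie at the lower right.

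For some sites the decimals of the A. thaliana mean show how many libraries it rested on, if the percentages were whole. A mean of 3 whole percentages is whole or has a fractional part of 0.333 or 0.667, whereas a mean of 2 is whole or has a fractional part of 0.5. At 13 sites the fractional part was 0.333 or 0.667, and the mean so rested on all 3 libraries if the percentages were whole. At these sites the median absolute difference was 1.33 points, the widest was 9.67 points, and none reached 20 points. These 13 sites all lay between 77.7% and 96.7% in A. thaliana, whereas the sites with a whole-number mean ranged from 0% to 100%. The methylation level thus differed along with the form of the mean, and the part of each was not tested. All 4 sites that did were among the 27 with a whole-number mean, for which the median was 4 points and the number of libraries cannot be read. The remaining 2 sites, C48 of tRNA-Leu(TAA) and C49 of tRNA-Thr(TGT), had a fractional part of 0.5 and differed by 8.50 and 19.5 points. The 7 isodecoders with a mean over 3 by this measure had a median of 69.77 RPM.

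No methylation was read in either species at the 4 sites of organellar or ambiguous origin. Of the chloroplast tRNAs, tRNA-Cys(GCA) was read at C49, tRNA-Glu(TTC) at C48 and tRNA-Met-i(CAT) likewise at C48, and the other site was C49 in tRNA-Leu(TAG), whose sequence occurs in the nucleus and the chloroplast. All 8 values were 0%. Durum wheat was at 89%, 90%, 0% and 92% at these sites in the same order, and Ginkgo biloba at 0% at all 4. Nannochloropsis oculata was at 63% at the site of tRNA-Met-i(CAT) and at 0% at those of tRNA-Cys(GCA) and tRNA-Glu(TTC). As one interpretation, the paper proposes that the methylated wheat tRNAs are chloroplast-like sequences recently integrated into the nucleus, which was not tested here. In A. thaliana the abundance of the tRNAs with these 4 sites, in the same order, was 68.4, 4306.75, 4602.25 and 9121.74 RPM. The only nuclear site at 0% in both species was C48 of tRNA-Glu(CTC).

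A number in one species only was found at 9 sites, all of them nuclear. In 5 alanine, arginine and lysine tRNAs the number was in A. thaliana, and the B. rapa cell read N.D., taken here as not determined. C49 was at 46% in tRNA-Ala(AGC), at 80% in tRNA-Ala(CGC) and at 60% in tRNA-Ala(TGC), and C48 was at 80% in tRNA-Arg(TCG) and 65.5% in tRNA-Lys(TTT). All 5 were above the threshold. Their abundance in A. thaliana was between 0 and 0.68 RPM, and the 3 alanine tRNAs were listed at 0, which at this depth allows up to 1.03 RPM (3 reads, counting error only).

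In leucine and serine tRNAs the number was in B. rapa, and the A. thaliana cell was not determined. tRNA-Leu(CAA) was at 89% at C34, the wobble base of its anticodon, and at 75% at C48. In budding yeast and in human cells, C34 of this tRNA is a known substrate of Trm4 and NSUN2. Ginkgo biloba was at 20% and 60% at these cytosines. C48 was at 88% in tRNA-Leu(CAG), beside 86% in durum wheat, and at 100% in tRNA-Ser(AGA), beside 87% in durum wheat and 40% in Ginkgo biloba. In the A. thaliana RNA-seq library tRNA-Leu(CAA) was at 2.74 RPM, tRNA-Ser(AGA) at 2.39 RPM, and tRNA-Leu(CAG) was listed at 0.

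The remaining 8 sites had no number in either species. At 3 of them both cells held another base, which the table credits to RNA-seq data. These were a guanosine at position 49 of tRNA-Arg(CCG), a guanosine at position 39 of the tRNA-Glu(TTC) of nuclear and mitochondrial origin, and an adenosine at position 38 of the tRNA-Asp(GTC) of all 3 genomes. The A. thaliana consensus sequences hold the same bases there. At the other 5, position 48 of tRNA-Arg(CCT), positions 48 and 49 of tRNA-Thr(AGT), position 32 of the chloroplast tRNA-Met-e(CAT) and position 48 of the mitochondrial tRNA-Arg(TCT), neither species was determined. No site of the table had a number in one of the 2 species and another base in the other.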

How the data were processed

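The percentages of methylation were deposited by the authors as 1 percent value per site and species. Per the labels and the study's methods, reads were trimmed, filtered and aligned in CLC Genomics Workbench (version not given in the sources used here) to consensus tRNA sequences built from TAIR10 and converted in silico, with tRNAs of the closest annotated relative added for B. rapa. The study used an in vitro transcribed luciferase RNA without m5C as conversion control, whose values were not analysed here. After conversion, a thymine encoded by a B. rapa gene and an unmethylated cytosine read alike, and per the file headers the base given where no cytosine was present rests on RNA-seq. Text cells (another base, N.D.) were kept apart from numbers, and 0 was used as a number. The RPM values, from 1 A. thaliana RNA-seq library, were deposited by the authors. Of the 87 values above 0, 80 were whole multiples of 0.342 RPM within 0.005 RPM, and the read numbers given here come from these steps. With 1 library, no count test could be made.

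Differences were taken as B. rapa minus A. thaliana in percentage points. The At column is the authors' mean, so no SD, n or test is given. Summaries were computed in Python 3.11.15 with NumPy 2.4.6 and pandas 2.3.3, drawn with Matplotlib 3.10.9, and tested on simulated data. Of the 210 genes of the isodecoders compared, 206 were found in a RefSeq gene table (TAIR10.1, used for names only), 205 of them as tRNA genes.

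Named with their values were sites that differed by 20 points or more or lay on different sides of 20%, sites at positions 34, 38, 50, 68 or 72, sites of organellar or ambiguous origin, sites with a number in 1 species, all sites of a tRNA so named, and the smallest differences. The nuclear C48 and C49 sites outside this rule were named after their values were seen. The comparison, the lists and the rules were chosen with earlier results of these data known. Alternatives were nuclear sites only, other thresholds, other summaries and each isodecoder left out in turn.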

Additional observations from a re-analysis of the deposited data

How the results depend on the processing

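No paired analysis was possible because the A. thaliana values are the authors' means and B. rapa has 1 library. With each isodecoder left out in turn, the median absolute difference lay between 3 and 3.67 points, the number of sites 20 points or more apart between 2 (without tRNA-Gln(TTG)) and 4, the sites methylated in both species between 27 and 32, the sites higher in B. rapa between 11 and 14, and Pearson's r between 0.838 and 0.946. Among the 13 sites whose A. thaliana mean has a fractional part of 0.333 or 0.667, the median was 1.33 points, 0 sites were 20 points or more apart, and 6 were higher in B. rapa. The counts are over fewer sites, all of them at 77.7% or more in A. thaliana, and the cause of the lower median was not tested. Pearson's r fell to 0.764 over nuclear sites only and to 0.652 over sites at 20% or more in either species. The mean absolute difference was 9.37 points. A limit of 10 points counted 10 sites, and with differences over 5 points only, 6 sites were higher in B. rapa. As means of log2(RPM + 1) and log2(RPM + 0.1), turned back into RPM, the abundance of the isodecoders with a site 20 points or more apart was 6.26 and 5.87 RPM, and that of the other nuclear isodecoders 11.6 and 9.80 RPM. The other alternatives stayed within 1.5 times the value reported, and no direction was reversed. One of them, C48 without tRNA-Gln(TTG), was chosen after seeing the data and gave a median of 8.50 points. The number of reads behind each percentage limits every comparison of single sites.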
